A study of Drosophila melanogaster with 3 samples.

Results

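Eip75B is the Drosophila gene of the nuclear receptor E75, and its locus was described here through the binding sites of Ultraspiracle (USP) that chromatin immunoprecipitation and sequencing (ChIP-seq) placed there. The locus was the gene body on 3L from 17950953 to 18064696, on the minus strand of genome build dm6, with 5 kb added on each side (123.744 kb in all). Within each list, every peak summit inside these bounds was taken by position alone. The list of reproducible peaks, thresholded by the irreproducible discovery rate (IDR), held 87 among 11195 summits, and these 87 are called members. That list consists of the strongest peaks of the pooled list, so a cut on signal decided which summits are members. The list called on pooled reads held 126 of 30000. The full lists of replicates 1, 2 and 3 held 126, 136 and 129 of 30000 each. The gene had been picked out because its number of summits was already known to be high, so that number is a description.

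Chromatin came from whole wandering larvae of the third instar, both sexes pooled, of a transgenic line that stably carries usp fused to eGFP at its C terminus, and an antibody to GFP was used. The labels give 3 biological replicates of this single group, with no second genotype, treatment or time. They do not name the promoter of the fusion or say whether the untagged gene remains. Because whole animals were used, a site bound in a few tissues and a site bound weakly in many cannot be told apart. The pooled and IDR lists were made from replicates 2 and 3. Replicate 1 had no part in either. Each replicate was cut to its 11195 strongest peaks before replicates were compared, because the full lists all stop at the same length. Depth is unknown from these files.

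USP is the partner of EcR in the receptor for the steroid 20-hydroxyecdysone, and the pair binds DNA at short palindromic elements. Eip75B was recognised as an early gene because its chromosomal puff appears as a direct response to the hormone. E75 binds heme, responds to nitric oxide and represses the receptor HR3, and its isoforms come from separate promoters and differ at the N terminus. The annotation lists 7 transcripts, each with a start of its own. From the 3′ side these starts are RD at 17961814, RA at 17971439, RC at 17999821, RG at 18026032, RB at 18059598, RE at 18061453 and RF at 18064696. All 7 transcripts share exons at the 3′ side. RB, RE and RF have the same annotated coding segments, so their separate starts do not give separate N termini.

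Sequences at 6 summits are shown first: the strongest of the locus and 5 that carry the element that the motif results below turn on. Each is the plus strand of dm6 from 50 bp before to 50 bp after the summit. Capitals mark the 13 bases that match the palindromic ecdysone response element (EcRE IR1, an inverted repeat with 1 base in its middle) with at most 1 mismatch. The first, at the RA start, has no such match. The others are the summit next in strength, a pair between the RD and RA starts, the summit at the start of a noncoding RNA inside the gene, and a summit between the RC and RG starts.
chr3L:17971328-17971428 (rank 10): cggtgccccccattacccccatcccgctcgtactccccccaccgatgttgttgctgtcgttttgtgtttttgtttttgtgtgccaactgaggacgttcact
chr3L:17972501-17972601 (rank 19): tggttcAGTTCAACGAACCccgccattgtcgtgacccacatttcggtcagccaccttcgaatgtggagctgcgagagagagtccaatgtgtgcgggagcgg
chr3L:17963610-17963710 (rank 218): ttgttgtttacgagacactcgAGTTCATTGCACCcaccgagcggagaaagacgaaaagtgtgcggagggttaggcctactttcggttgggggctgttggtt
chr3L:17967347-17967447 (rank 460): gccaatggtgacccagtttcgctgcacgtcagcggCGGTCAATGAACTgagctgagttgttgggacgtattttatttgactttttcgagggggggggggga
chr3L:17981663-17981763 (rank 1429): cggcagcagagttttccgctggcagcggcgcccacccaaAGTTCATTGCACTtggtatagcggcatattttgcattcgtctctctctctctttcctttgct
chr3L:18022712-18022812 (rank 687): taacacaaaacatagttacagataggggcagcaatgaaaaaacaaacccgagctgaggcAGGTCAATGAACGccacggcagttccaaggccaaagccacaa

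Members ran from rank 10 to rank 10993 of the list, and their median signal was high. The 87 members had a median signal of 2761, where signal is the peak caller's score and the median of all 11195 summits was 746. Their median rank was 1003. Of the 87, 9 (10.3%) were among the 100 strongest summits of the genome, which make up 0.893% of the list, and 43 (49.4%) were among the 1000 strongest, which make up 8.93%. The replicates' own lists put 8, 11 and 9 summits of the locus in their first 100 (9.33 ± 1.53, SD, n = 3) and 43, 44 and 45 in their first 1000 (44.0 ± 1.00, SD, n = 3). No other protein-coding gene, with 5 kb on each side, held more than 5 of the 100 strongest. Members are neighbours in the same chromatin and do not count as independent observations.

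**Figure D1:**
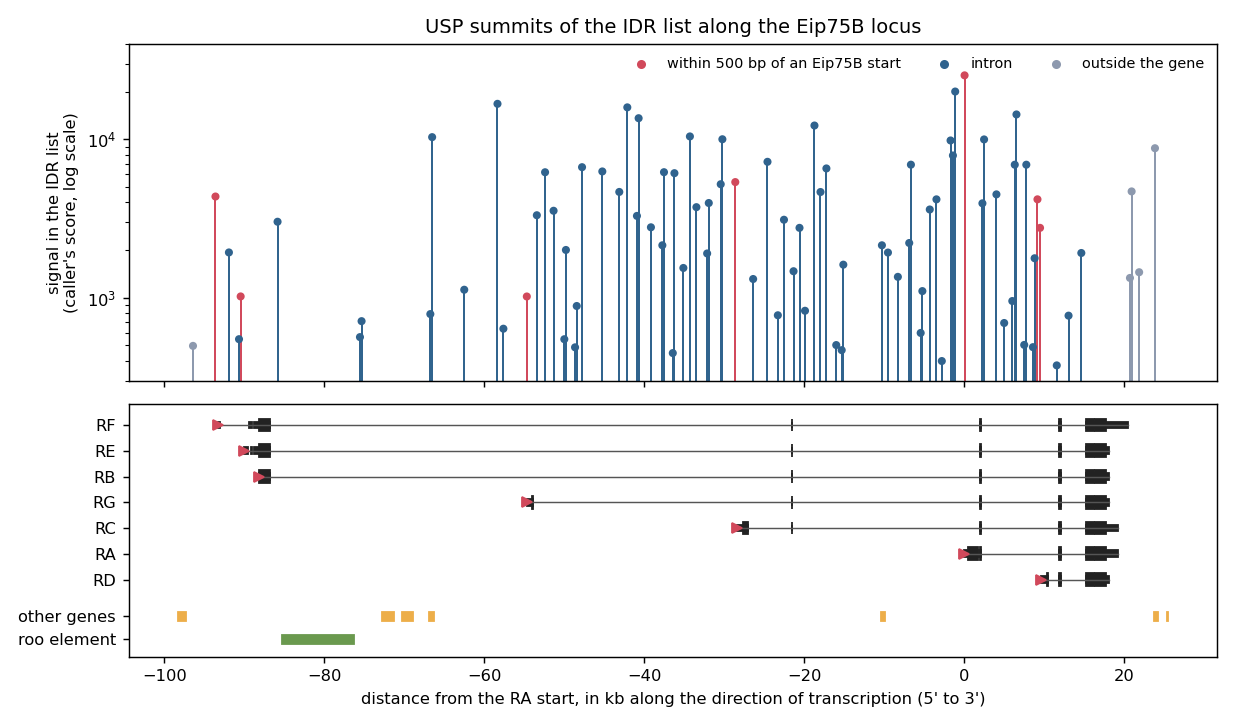
Top, signal (the caller's score, log scale) of the 87 IDR summits against distance in kb from the RA start along transcription, coloured by whether a summit lies within 500 bp of an Eip75B start, in an intron or outside the gene. Bottom, the 7 transcripts (thick, coding exons; thin, untranslated exons; arrowheads, starts), the other annotated genes and the roo element. Summits crowd between the RG and RD starts and are sparse between RB and RG.

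The strongest summit lay on 3L at 17971378, in the first exon of RA and 61 bp downstream of its start. It had a signal of 25348 and ranked 10, and its ranks in replicates 1, 2 and 3 were 7, 15 and 8, with signals of 8361, 6287 and 11263. The summit next in strength, at 17972551, lay 1112 bp upstream of the RA start, with rank 19 in the IDR list and ranks of 19, 23 and 19 in the replicates, where its signals were 6129, 5175 and 8875. No scaling of signals between lists is stated, so ranks are compared: both sites were near the top of every list. A pair of further summits at 17972835 and 17973131, ranks 166 and 109, followed it upstream. Thus 4 strong summits lay from the RA start to 1692 bp upstream of it.

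The other strong sites lay 1837 bp or more from an Eip75B start. The summit at 18029773 (rank 29, replicate ranks 30, 41 and 26) lay 3741 bp upstream of the RG start. A pair at 18013544 and 18012129 (ranks 33 and 50) lay between RC and RG, more than 12 kb from either start. The first of these ranked 45, 18 and 40 in the replicates and the other ranked 44, 47 and 57. Between RD and RA, the summit at 17964893 ranked 40, and it ranked 47, 39 and 42 in replicates 1 to 3. The other 3 of the 9 strongest lay at 17990146 (rank 65), 18005717 (rank 92) and 18037943 (rank 94). Next came 18001658 and 17968941 at ranks 103 and 104, and then the summit at 17973131 already named. Of these 12 strongest summits 11 were in introns of Eip75B, where 86.2% of all members lay, and 1 of them, at 18037943, is also inside a noncoding RNA gene.

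The promoters of the 7 transcripts differed in their binding. RA, RC, RF and RD each had a summit of rank 10 to 531 within 500 bp of the start. At RC it lay 224 bp upstream (rank 341, replicate ranks 398, 394 and 284), at RF 335 bp upstream (rank 495, replicate ranks 565, 617 and 402) and at RD 452 bp upstream (rank 531, replicate ranks 310, 694 and 746). RD had a weaker summit as well, 129 bp upstream at rank 1004, with none within 100 bp of it in replicate 1. At RC, replicates 1 and 2 placed an additional summit on the start itself, 23 and 14 bp from it, at ranks 368 and 386, whereas replicate 3 had none among its strongest peaks.

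RG and RE had weaker promoter summits. The RG summit lay 74 bp upstream of the start at rank 3916, with replicate ranks of 4755, 5047 and 3204. The RE summit lay 429 bp upstream at rank 3912, with ranks of 3676 and 3982 in replicates 1 and 3 and no summit within 100 bp in replicate 2. RB had none in the IDR list, where its nearest summit was 2284 bp away. Thus 6 of the 7 starts had a summit within 500 bp, and the weak and absent ones were RG, RE and RB. Starts of RB, RE and RF lie close together, so these summits cannot be assigned to 1 transcript by position alone.

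Few members lay at promoters. Of the 87, 7 (8.05%) were within 500 bp of an Eip75B start, and each replicate had 7 as well (8.08% ± 0.107, SD, n = 3). Another 4 lay within 500 bp of the start of a noncoding RNA, so 11 (12.6%) were at an annotated start of any gene, against 43.1% of all summits. Introns held 75 members (86.2%), the region downstream of the gene held 4 and the region upstream of it held 1. None fell in an exon outside the promoter windows. By signal the promoter summits did not stand apart in a stable way. Their median rank percentile was 95.3, against 89.4 for the other members. In the replicates the difference was 8.58, 5.11 and 2.24 percentile points (5.31 ± 3.18, SD, n = 3). An exact two-sided sign-flip permutation test over the replicates gave p = 0.25, the smallest that 3 values allow. With 1 summit per peak interval the difference became -12.0 points, and with promoters of 1000 bp it was -0.0804.

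Density along the gene was uneven in the same way in all 3 replicates. The stretch from the RD start to the RA start (9.625 kb) had 14 summits in the IDR list and 14 in every replicate, or 1.45 per kb. From RC to RG there were 26 (25, 28 and 27 in the replicates), a mean density of 1.02 ± 0.0583 per kb (SD, n = 3), and from RA to RC also 26 (25, 26 and 27), or 0.916 ± 0.0352 per kb. From RG to RB, the longest stretch at 33.566 kb, there were 9 (10, 9 and 8), or 0.268 ± 0.0298 per kb. The length of this stretch includes an insertion of the mobile element roo, of 8.999 kb, with no summit in any list. The 3′ part of the gene, from RD to its end, had 3 (3, 3 and 2), or 0.246 ± 0.0532 per kb. These stretches are called dense or sparse from these same values, so their separation is a description. The short stretch from RE to RF (3.243 kb) had 3 summits (3, 2 and 2), or 0.719 ± 0.178 per kb. That from RB to RE (1.855 kb) had 0.

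**Figure D2:**
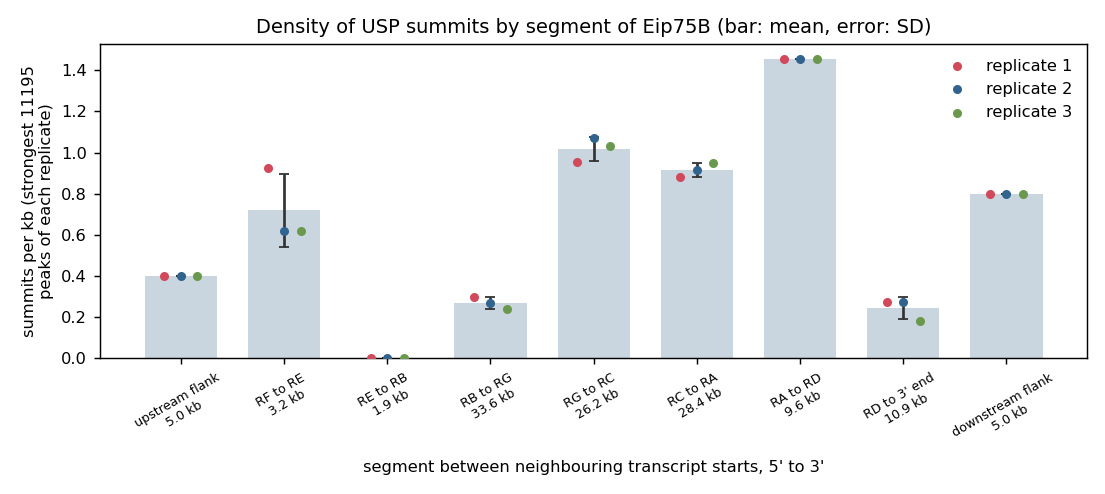
Summits per kb in each stretch between neighbouring Eip75B starts and in the flanks, from the 5′ side to the 3′ side; bars are means over 3 replicates, error bars SDs and points the replicates. RA to RD is highest at 1.45 per kb, and none of the 11195 strongest summits of any replicate lies between RE and RB.

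Weak and strong sites were mixed within stretches. From RD to RA the ranks ran from 10 at 17971378 to 8716 at 17962834, and from RA to RC from 19 at 17972551 to 10411 at 17974225. From RC to RG they ran from 33 at 18013544 to 9404 at 18007857, and from RG to RB from 29 at 18029773 to 7557 at 18046967. The 3′ stretch had its strongest summit at 17956783 with rank 1681 and its weakest at 17959853 with rank 10993, the weakest of all members. From RE to RF the ranks were between 1659 at 18063349 and 7764 at 18062088. In the flanks, ranks ran from 128 at 17947576 to 2788 at 17950703 downstream and from 495 at 18065031 to 8556 at 18067840 upstream. Of the 43 members among the 1000 strongest, 18 lay from RC to RG, 11 from RA to RC and 8 from RD to RA. Between RB and RE, over 1.855 kb, there was no summit in the IDR list or in any replicate's strongest peaks. The pooled list had 2 weak ones there, at 18060182 (rank 18299) and 18060404 (rank 29612).

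The locus also contains 7 other annotated genes or parts of them, and 3 of the 4 noncoding RNA genes among them had a summit inside the locus. The noncoding RNA gene lncRNA:CR45922 lies from 18037723 to 18038280 in the long intron of RB, RE and RF. It held the summit of rank 94, 337 bp from its start, which ranked 116, 68 and 100 in the replicates, and a weaker one. Past the 3′ end of Eip75B, lncRNA:CR45393 had a summit 124 bp from its start at rank 128 (replicate ranks 135, 157 and 119). The gene lncRNA:CR45921, between RA and RC, had one 128 bp from its start at rank 1429 (replicate ranks 1486, 1189 and 1690). The protein-coding genes CG32192 and CG42393 lie within the same intron as lncRNA:CR45922. Neither had a summit in its body or within 500 bp of its start. CG44006 upstream and lncRNA:CR43174 downstream had no summit in the parts of them inside the locus. Their starts, at 18070150 and 17934032, lie outside the locus, so summits there were not counted.

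Members were found again in the replicates. Of 87 summits, 71 (81.6%) had a summit within 100 bp among the strongest peaks of all 3 replicates, against 71.2% of all summits in the list. Another 14 were found in 2 replicates and 2 in 1. Replicate 1, which the IDR list did not use, held 79 (90.8%), against 87.4% of all summits. With the full replicate lists 80 members were found in all 3. The IDR list was made from replicates 2 and 3, so finding its summits again in those replicates is not an independent check. The summits were not matched for strength, although 49.4% of members and 8.93% of the list were among the 1000 strongest. Whether members were found again more often than other summits of equal strength was not tested. The ranks of members found in both of a pair of replicates had a Spearman's rho of 0.947 (replicates 1 and 2, 81 members), 0.949 (replicates 1 and 3, 83 members) and 0.959 (replicates 2 and 3, 82 members). These are correlations across sites of 1 locus and are given without a test.

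**Figure D3:**
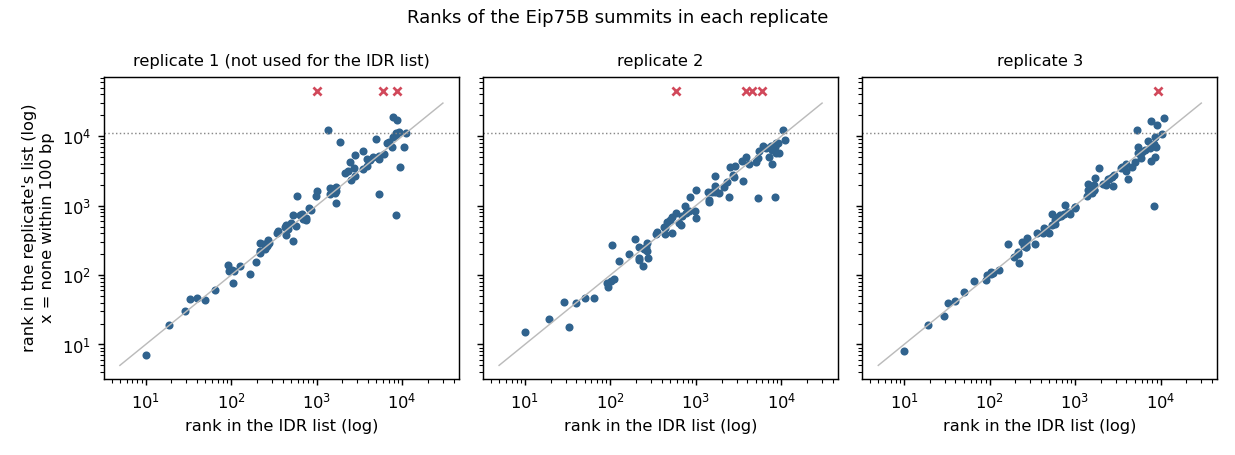
Rank of each of the 87 members in the IDR list against the rank of the nearest summit within 100 bp in each replicate, both log scales; the line marks equal ranks, the dotted line rank 11195 and crosses members with no such summit (3, 4 and 1 in replicates 1, 2 and 3). Strong members lie closer to the line than weak ones.

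Strong members varied less in rank than weak ones. Among members found in all 3 full lists, the largest replicate rank was a median of 1.45 times the smallest for the 42 that are among the 1000 strongest of the IDR list, and 1.74 times for the other 38. Some strong sites still moved: the summit at 17968941 ranked 77, 267 and 102, while replicate 2 had a summit of rank 121 at 17968834, 107 bp away, that neither other replicate had. The converse was examined as well. In all, 17 strong replicate summits had no IDR summit within 100 bp. Of these, those at 18014770, 18014718 and 18014774 in replicates 1, 2 and 3 (ranks 2674, 1708 and 6078) marked a place found in all 3, 171 to 227 bp from the IDR summit at 18014547.

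Summits shared wide peak intervals. The 87 members lay in 39 intervals, 21 of which held a single summit. These intervals covered 72341 bp, or 58.5% of the locus, against 4.59% of the 6 chromosome arms. The widest ran from 17961220 to 17977448, over 16229 bp, held 22 summits, and took in both the RD and the RA start. The next widest, at the RC start, measured 5180 bp and held 5.

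The distance between neighbouring summits fell into separate classes. The median was 1023 bp, against 2204 bp over all summits of the list. Of the 86 distances 17 (19.8%) were at most 250 bp, none was under 199 bp, 6 were over 250 and up to 400 bp, and none was over 400 and up to 600 bp. The same shape held genome-wide, with 13.9% of distances at most 250 bp, 0.545% over 400 and up to 600 bp and the same minimum of 199 bp. Of the members, 34 (39.1%) had a neighbour within 250 bp, against 27.7% of all summits. Per the labels the chromatin was sheared to 200 to 800 bp, and close neighbours cannot be told apart from a single site that the caller split. With summits within 250 bp of each other joined, an alternative chosen after the distances had been seen, 70 sites remained, and with 1 summit per interval 39.

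**Figure D4:**
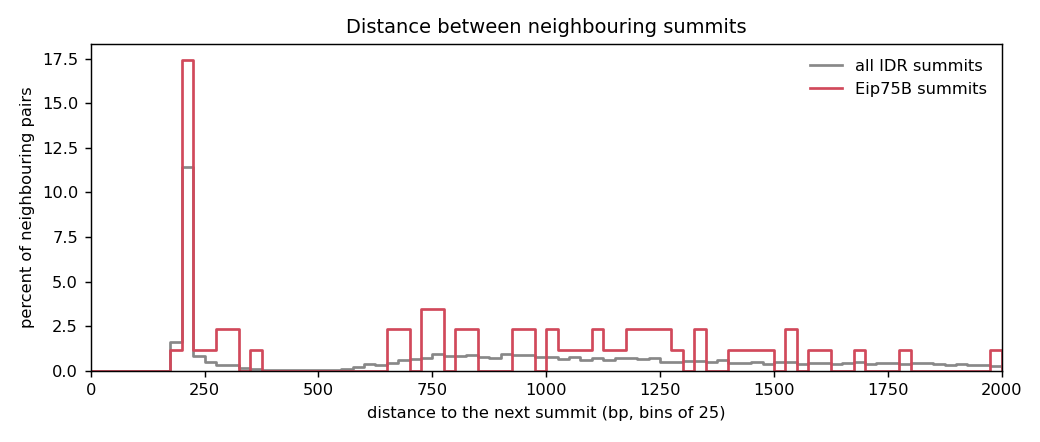
Distances between neighbouring summits up to 2000 bp, in bins of 25 bp, as percent of all neighbouring pairs, for the Eip75B locus and for all IDR summits. Both have a narrow peak near 200 bp, almost nothing from 400 to 600 bp and a broad class beyond.

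The sequence under the members was searched for the ecdysone response element. With up to 1 mismatch, EcRE IR1 matched within 100 bp of 14 members (16.1%), against 3.74% of all 11195 summits with windows of the same length. In the replicates' own strongest summits the share at the locus was 12.8%, 13.6% and 15.1% (13.8% ± 1.18, SD, n = 3), against 3.71% ± 0.0861 over all summits. Both strands were read, and no allowance was made for base composition: GC content had a median of 47.3% in the members' windows and 44.8% in all. Nor were the summits matched for strength, although 49.4% of members and 8.93% of the list were among the 1000 strongest. Among members, the match was at 9 of the 44 stronger ones and 5 of the 43 weaker ones. Without a mismatch no member matched, against 0.447% of all summits. The windows were 14.1% of the locus and held 14 of its 21 matches with at most 1 mismatch, or 0.801 per kb, against 0.0659 per kb outside. GC content of the whole locus was 40.2%, below the median of the members' windows, and this contrast was not adjusted for it.

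These 14 matches lay mostly toward the 3′ promoters. They were taken because they lay within 100 bp of a summit, so their closeness to summits was set by the window. Inside it, their middle was 5 to 86 bp from the summit, with a median of 31.5 bp, and 11 were within 50 bp. The other 7 of the 21 matches in the locus lay farther than 100 bp from any member. In position, 12 of the 14 lay between the RD and RC starts, a stretch with 40 of the 87 members, and the other 2 lay between RC and RG. By strength, 9 of the 14 were at summits among the 1000 strongest, where 43 of the 87 members (49.4%) lay. At 17972551, the summit of rank 19 upstream of RA, the match lay 38 bp away. The 13 bases at the other sites shown above lay 23 bp from the summit of rank 218, 9 bp from that of rank 460, 5 bp from that at the start of lncRNA:CR45921 and 15 bp from that at 18022762. A match is a run of letters and does not show that the receptor bound there.

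The locus has 2 copies of the element without a mismatch, identical in sequence and both inside the interval that spans RD and RA. In these sites capitals mark bases that the consensus restricts, some of them to a choice of bases, and the lower-case letter the free base in the middle.
chr3L:17972270-17972282: AGTTCAaTGAACT
chr3L:17977207-17977219: AGTTCAaTGAACT
The first lay 837 bp upstream of the RA start and 275 bp from the nearest IDR summit, that of rank 19, and 276, 278 and 256 bp from the nearest summit of replicates 1, 2 and 3. The other lay 5774 bp upstream of the RA start and 346 bp from the nearest IDR summit. A weak summit of the pooled list, rank 21833 and under the IDR threshold, lay 31 bp from it, and replicates 1, 2 and 3 had summits 133, 37 and 32 bp away at ranks 16918, 29067 and 23515. Neither copy was thus within 100 bp of a summit of the IDR list, and the stronger summit beside the first has a match with 1 mismatch nearer to it.

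Shorter sequences were counted in the same windows. The single hexamer AGGTCA, on either strand, was found at 11 members (12.6%), against 6.24% of all summits. In the replicates' own lists it was at 13.1% ± 0.769 (SD, n = 3), against 6.21% ± 0.144 over all summits. Among these 11 were the summit at lncRNA:CR45922 (rank 94) and those at 18016668 and 18022762 (ranks 264 and 687), where the hexamer is within the palindromic match. A pair of AGGTCA in the same orientation with 0 to 5 bases between was at no member and at 0.0357% of all summits. GAGAG, the core of the sequence bound by the GAGA factor, an architectural and promoter protein, was at 45 members (51.7%), against 34.5% of all summits. The replicates gave 47.7%, 55.7% and 52.3% for the locus, above the 33.6% to 35.6% of all their summits. These shares, too, were not matched for the strength of the summits.

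Below the IDR threshold, the pooled list held 39 more summits in the locus. The one next under the threshold was at 17985323, with rank 11767 and a signal of 341, between RA and RC. It was found in all 3 full replicate lists at ranks 20220, 11542 and 9913. The weakest member above the threshold, at 17959853, had a signal of 374. Of the 39, 16 were found in all 3 full lists, 9 in 2, 13 in 1 and 1 in none. None lay within 500 bp of an Eip75B start, and 8 were within 250 bp of an IDR summit. The sparse stretch between RG and RB, 33.566 kb of the 123.744 kb of the locus, held 11 of the 39. Shares for pooled summits below the threshold elsewhere in the genome are not given here, so these counts are descriptions.

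Eip75B was compared with other genes per length. It had 0.703 IDR summits per kb (0.695, 0.711 and 0.695 in the replicates, SD 0.00933, n = 3), the highest of 1013 protein-coding genes with bodies of at least 20 kb, whose median was 0.0532 and 95th percentile 0.349. The genes nearest to it were vri, a bZIP repressor, at 0.682 per kb (0.671 ± 0.0179, n = 3), tara, a nuclear cofactor gene, at 0.649 (0.657 ± 0.0129), kay, the Fos subunit of AP-1, at 0.630 (0.647 ± 0.0303), Mnt, a Myc antagonist, at 0.552 (0.535 ± 0.0383), and drn at 0.549 (0.610 ± 0.0610). Eip75B was above vri in each replicate, where vri had 0.651, 0.682 and 0.682, and its replicate values did not overlap those of tara or kay either. The gene was chosen for its many summits, so this order is a description, repeated replicates add no support to it, and no test was made. The lead over vri was 0.0215 per kb in the IDR list, where vri held 22 summits. With 10 kb flanks Eip75B had 0.665 per kb, and the other genes were not recomputed with such flanks. The genes named as nearest in density are 22.28 to 34.679 kb long, and Eip75B is 113.744 kb. Among 83 genes of at least 100 kb the next densest was CG46467 at 0.290.

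Among 16 other regulators of the ecdysone response, the density ran from 0.0486 per kb at Hr38 to 0.753 at Kr-h1, a zinc finger regulator also known from the juvenile hormone response. Kr-h1, with a body of 13.896 kb, was the only one of them denser than Eip75B (0.739 ± 0.0242, n = 3), followed by vri and by Blimp-1, a transcriptional repressor, at 0.514 (0.482 ± 0.0321). The median regulator had 0.325. The density depends on the length of the gene and on close summits being counted apart.

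**Figure D5:**
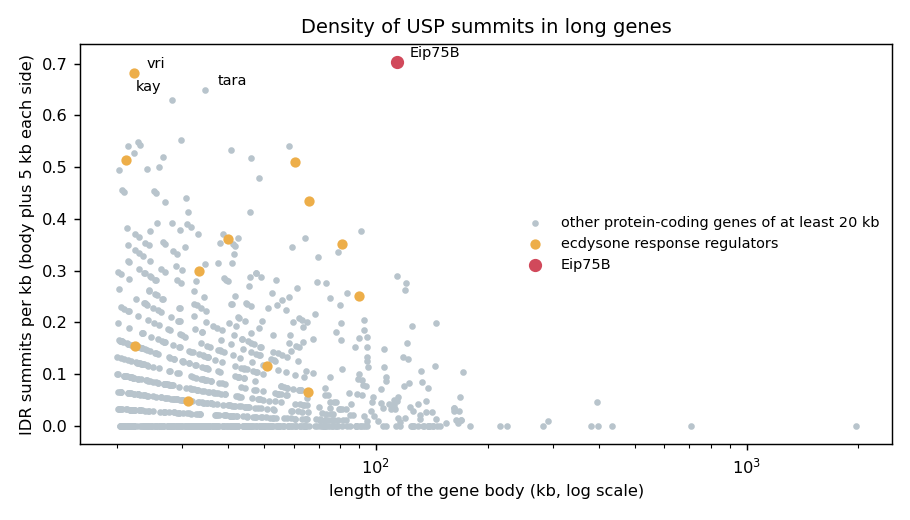
IDR summits per kb (gene body plus 5 kb on each side) against length of the gene body (log scale) for 1013 protein-coding genes of at least 20 kb; gold points are regulators of the ecdysone response. Eip75B is highest at 0.703 per kb and longer than the genes nearest to it in density.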

How the data were processed

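Peaks of 3 replicates of 1 group were used. Per the file headers, the deposited lists are in narrowPeak format on dm6, each called against a control alignment, and the IDR list derives from replicates 2 and 3 and their pooled list. For the aligner, the caller and the cut-off of the IDR step, nothing is given in the sources used here. Column 7, the signal deposited by the authors for each peak, has no stated scaling between libraries and served as a rank within each list. Each of the other lists held 30000 rows, and the 11195 IDR peaks were the strongest of the pooled list. Summits were made 1-based from interval start and offset. Gene models came from Ensembl release 115, without transposable elements, and sequence from RefSeq release 6, where 30540 of 30593 start codons read ATG. Summits within 100 bp counted as shared, promoters were 500 bp on each side of a start, and motif windows 100 bp on each side of a summit. Python 3.11.15 with numpy 2.4.6, pandas 2.3.3, scipy 1.17.1 and matplotlib 3.10.9 was used, and the matching, motif search and permutation test were tested on simulated data. Named sites were the 12 strongest, the strongest at each start, the strongest and weakest of each stretch, palindrome matches and the pooled summit next under the threshold. Named genes were those in the locus, the 5 nearest in density and regulators by their range. A few sites outside this rule were chosen after their values were seen. The locus, lists and motifs were chosen with earlier results of these data known. Alternatives covered thresholds, flanks, distances, promoter widths, windows and each replicate left out. The replicates are labelled as separate biological samples.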

Additional observations from a re-analysis of the deposited data

How the results depend on the processing

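No paired analysis was possible because the study has 1 group. The count of 87 summits was 71 among the 5597 strongest, 126 in the pooled list, 81 without flanks and 89 with 10 kb, and fell to 39 with 1 summit per interval. The promoter share of 8.05% became 4.60% with 250 bp, 10.3% with 1000 bp, 9.86% among the 5597 strongest and 5.56% in the pooled list. The difference in rank percentile between promoter and other members, 5.87, was 2.95 with 250 bp, reversed to -0.0804 with 1000 bp and to -12.0 with 1 summit per interval, and ran from 3.68 to 6.85 with a replicate left out; the cause was not tested. Summits per kb were 0.665 with 10 kb flanks and 0.574 for the 5597 strongest. AGGTCA was at 17 members with windows of 200 bp (19.5%, against 10.7% of all) and at 8 with 50 bp (9.20%, against 3.78%). Members found in all replicates were 63 within 50 bp and 78 within 200 bp. Read depth is unknown, so whether the sparse stretches hold weaker sites than these lists resolve was not tested.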

Other observations

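The longest empty stretch between members ran 10302 bp, from 18046967 to 18057269, and contains an insertion of the mobile element roo of 8.999 kb, from 18047763 to 18056761. No summit of the IDR list, the pooled list or any full replicate list lay inside the insertion. Of 695 annotated insertions of at least 5 kb on the 6 arms, 1 held an IDR summit. How reads from repeated elements were mapped is not given in the sources used here, and its part in the empty stretch was not tested.

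A few members changed rank sharply between the pooled data and the replicates, or between replicates. The summit at 17963923 ranked 8443 in the IDR list and 741, 1310 and 997 in replicates 1, 2 and 3, and it lay in the widest interval, with the summit of rank 218 as its neighbour. The summit at 18038168 in lncRNA:CR45922 ranked 5296 in the IDR list and 1487, 1308 and 12218 in the replicates. That at 17978299 ranked 1373 in the list and 1585 and 1392 in replicates 2 and 3. Only in replicate 1, which the list did not use, did it differ sharply, at rank 12085.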
